A study of Mus musculus with 23 samples.

Results

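Transcripts of 10 enzymes that crosslink or hydroxylate collagen were followed across subcutaneous mouse tumors and the cancer-associated fibroblasts (CAFs) sorted from them. The 10 genes, taken by symbol from the 24940 gene symbols of each table, were the lysyl oxidases Lox, Loxl1, Loxl2, Loxl3 and Loxl4, the lysyl hydroxylases Plod1, Plod2 and Plod3, and the prolyl 4-hydroxylase alpha subunits P4ha1 and P4ha2. All 10 passed the filters on low values in both tables. Each tumor came from 500000 cells of 1 cell line placed under the skin of adult female C57BL/6 mice, at the right flank or at both flanks. Tumors were taken at the endpoint, and tumor RNA came from unsorted tumor fragments. The lines were B16-F10 (melanoma, B16), EO771.LMB (breast carcinoma, EO771), LL/2 (lung carcinoma, LL2), MC38 (colon carcinoma) and Pan02 (pancreatic ductal carcinoma), with 3 tumors of each, or 15 in all. CAFs were the CD45- cells that bound an antibody to FAP, a fibroblast surface protease, and were sequenced as 2 libraries each from EO771, LL2, MC38 and Pan02 tumors. B16 CAFs were not analysed here. No group was untreated normal tissue, so each model was set against the other models, and each model rests on 1 engrafted cell line.

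Fibrillar collagen is modified in the endoplasmic reticulum and again outside the cell. Prolyl 4-hydroxylases, whose alpha subunits carry the catalytic site, hydroxylate prolines so that the triple helix is stable at body temperature. Lysyl hydroxylases act on lysines, and Plod2 acts mainly on the telopeptides, where its product sets the kind of crosslink that forms. The secreted, copper-dependent lysyl oxidases then oxidise lysine and hydroxylysine side chains of collagen and elastin, which starts crosslinking. In tumors, this set of enzymes is known for stiffening the matrix, and several of its genes respond to low oxygen.

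Promoter windows are shown for Plod3, P4ha1, P4ha2 and Loxl4. Their transcripts were all called higher in MC38 tumors and lower in B16 tumors. The P4ha1 call in B16 and the Loxl4 call in MC38 were lost in some fits that left out 1 tumor. P4ha1, P4ha2 and Loxl4 were called higher in Pan02 tumors as well. Loxl4 also had the widest range. The windows run from 250 bases before to 50 bases after the annotated start, 5′ to 3′ on the strand of the gene, from RefSeq (GRCm38.p6). Capitals mark ACGTG, the core of the hypoxia response element, read on both strands, with overlapping matches joined as 1 site. The Plod3 window (chr5:136986769-136987068, plus strand) held 1 site, the P4ha1 window (chr10:59323046-59323345, plus strand) held 1, the P4ha2 window (chr11:54100674-54100973, plus strand) held 2, and the Loxl4 window (chr19:42612757-42613056, minus strand) held 0.
Plod3: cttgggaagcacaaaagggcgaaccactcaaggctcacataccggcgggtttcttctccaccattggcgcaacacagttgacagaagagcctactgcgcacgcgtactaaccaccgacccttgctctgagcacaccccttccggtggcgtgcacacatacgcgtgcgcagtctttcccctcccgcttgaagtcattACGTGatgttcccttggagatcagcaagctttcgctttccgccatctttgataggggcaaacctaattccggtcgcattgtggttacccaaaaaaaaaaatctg
P4ha1: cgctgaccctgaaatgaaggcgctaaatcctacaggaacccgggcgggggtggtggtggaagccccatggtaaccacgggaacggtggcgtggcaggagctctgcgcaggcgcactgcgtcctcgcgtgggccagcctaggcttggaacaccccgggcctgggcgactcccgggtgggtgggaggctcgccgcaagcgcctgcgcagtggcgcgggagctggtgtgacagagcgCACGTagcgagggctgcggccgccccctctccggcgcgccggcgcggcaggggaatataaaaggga
P4ha2: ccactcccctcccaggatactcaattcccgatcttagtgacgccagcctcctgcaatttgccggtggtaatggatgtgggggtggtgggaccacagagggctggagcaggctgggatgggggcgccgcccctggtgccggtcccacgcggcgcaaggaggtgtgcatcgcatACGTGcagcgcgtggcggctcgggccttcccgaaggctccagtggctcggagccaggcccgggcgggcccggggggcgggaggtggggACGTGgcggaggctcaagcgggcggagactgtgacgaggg
Loxl4: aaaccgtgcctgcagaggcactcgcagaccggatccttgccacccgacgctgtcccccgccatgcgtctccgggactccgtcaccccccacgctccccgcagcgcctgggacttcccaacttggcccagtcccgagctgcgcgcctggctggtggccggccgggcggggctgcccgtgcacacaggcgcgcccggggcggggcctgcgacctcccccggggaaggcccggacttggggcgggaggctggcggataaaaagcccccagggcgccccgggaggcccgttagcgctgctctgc
The Plod1 window also held 0 sites. Of the 32851 windows in the reference table, 19.6% held at least 1 site and 2.7% held 2 or more. Windows for Lox, Loxl1, Loxl2, Loxl3 and Plod2 were not used here. A match describes letters only, and binding was not measured.

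Sequencing depth was 10035180 to 21946495 counts, summed over 1 transcript per gene, for tumors and, as recovered from the steps of the CAF values, 9267424 to 22847141 reads for CAF libraries, of which the second MC38 CAF library was the shallowest. The fibroblast markers Fap, Pdgfra, Col1a1 and Dcn were present in all CAF libraries. The sum of 10 fibroblast markers, in RPKM (reads scaled to transcript length and to the reads of the library), was 9632 to 10534 in EO771 CAFs, 7260 to 8570 in LL2, 1619 to 7031 in MC38 and 2485 to 4085 in Pan02. The low MC38 value was the second library. In Pan02 the order of the 2 tables was inverted, since Pan02 tumors summed to 8312 to 9025. Leukocyte markers summed to 24.1 and 28.4 RPKM in the EO771 CAF libraries, against 5.12 to 10.1 in the other CAF libraries. Ptprc, which encodes CD45, stayed at or below 0.947 RPKM. Of 4 leukocyte markers tested, 4 were called higher in EO771 CAFs, where 24.5% of all tested genes were (the background). In LL2 CAFs 4 were called lower (background 18.3%), in MC38 CAFs 3 were lower (31.3%), and in Pan02 CAFs 0 were called. Endothelial markers summed to 37.9 and 38.4 RPKM in EO771 CAFs, 30.0 and 38.0 in LL2, 11.6 and 16.2 in MC38, and 4.41 and 7.88 in Pan02. Of 6 tested, 6 were called higher in EO771 CAFs (background 24.5%) and 5 in LL2 CAFs (14.7%). In MC38 CAFs 3 were called lower (31.3%), and in Pan02 CAFs 6 were (26.5%). Epithelial keratins were detected in some CAF libraries. Krt8 was at 492 and 495 RPKM in the EO771 CAF libraries against 667 to 701 in EO771 tumors, and at 385 and 545 in Pan02 CAFs against 430 to 682 in Pan02 tumors. Krt8 was at 84.2 and 90.5 RPKM in LL2 CAFs against 99.2 to 161 in LL2 tumors. In MC38 CAFs it was at 0.274 or less, against 1.73 to 33.2 in MC38 tumors. Krt18 differed from Krt8 in EO771 CAFs, at 0.729 and 1.40 RPKM against 1.53 to 2.54 in EO771 tumors. In Pan02 CAFs it was at 349 and 483, against 620 to 896 in Pan02 tumors. It was at 97.2 and 101 RPKM in LL2 CAFs against 187 to 311 in LL2 tumors. In MC38 CAFs it was at 0.979 or less, against 1.05 to 1.61 in MC38 tumors. Of 5 epithelial markers, 1 was called higher and 4 lower in EO771 CAFs (background 24.5% and 27.9%). In Pan02 CAFs 4 were higher and 0 lower (27.1% and 26.5%). In LL2 CAFs 3 were higher and 1 lower (14.7% and 18.3%), and in MC38 CAFs 0 were higher and 5 lower (28.6% and 31.3%). The part of these markers in the enzyme values was not tested, and in bulk samples fewer cells of a type and less RNA per cell cannot be told apart.

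Among the tumor models, Pan02 had the highest mean Lox, Loxl1 and Loxl2, and B16 had the lowest mean for 5 of the 10 enzymes, namely Lox, Loxl1, Loxl4, Plod3 and P4ha2. All 10 genes differed among the 5 models (edgeR quasi-likelihood F test, Benjamini-Hochberg adjusted p between 1.3e-09 and 0.00017), where 91.1% of the 15732 genes tested did. Against the mean of the other models, Pan02 tumors were higher for 7 genes (background 32.5%) and lower for Plod1 and Plod2, or 2 genes (28.1%). B16 tumors were higher for Plod1 and Plod2, or 2 genes (31.9%), and lower for 7 (31.6%), Loxl2 being the gene not called. Of 10 fibroblast markers, 10 were lower in B16 tumors (background 31.6%, median log2 fold change -3.44) and 10 higher in Pan02 tumors (32.5%, 2.62). Plod1 and Plod2 were called in the opposite direction to these markers in both models. Loxl2 was not called in B16 tumors and Plod3 was not called in Pan02 tumors. The fibroblast marker sum was 83.8 to 331 RPKM in B16 tumors against 674 to 9025 in the other tumors. Skeletal muscle markers summed to 227 to 1831 RPKM in MC38 tumors, 2.26 to 616.5 in LL2 and 21.1 to 464.5 in Pan02. They summed to 2.03 to 2.61 RPKM in B16 tumors and 5.62 to 7.31 in EO771 tumors. The part of fibroblast or muscle markers in the enzyme values was not tested. Of the 10 enzymes, LL2 tumors were higher for 4 (23.3%) and lower for 2 (18.9%). MC38 tumors were higher for 4 (27.0%) and lower for 2 (24.4%). EO771 tumors were higher for Loxl4 alone, 1 gene (27.2%), and lower for 3 (27.0%). The median log2 fold change of the 10 genes was 0.93 in Pan02, beside 0.05 over all genes, and -0.56 in B16, beside -0.03. It was 0.26 in MC38, beside -0.00066, 0.031 in LL2, beside 0.0074, and -0.18 in EO771, beside -0.045. These comparisons share samples and are given side by side.

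Between pairs of tumor models, the number of the 10 genes called differed from 10 for B16 against Pan02 (background 64.3%) to 4 for EO771 against LL2 (44.4%). B16 differed from EO771 in 9 (58.6%), from LL2 in 8 (56.6%) and from MC38 in 8 (60.0%). Pan02 differed from EO771 in 7 (61.2%), from LL2 in 7 (48.6%) and from MC38 in 7 (58.9%). EO771 differed from MC38 in 7 (49.3%) and LL2 from MC38 in 5 (43.8%).

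**Figure D1:**
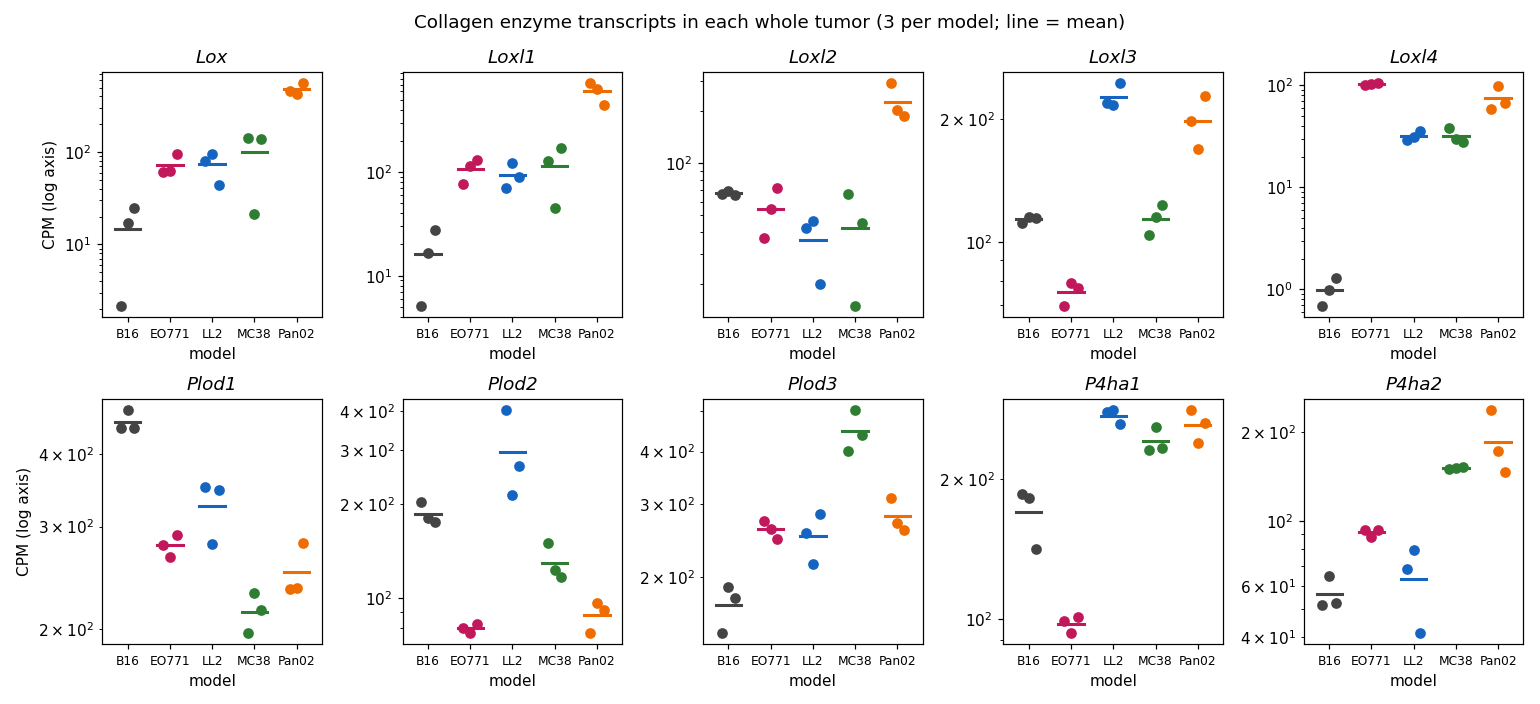
CPM (reads scaled to the total of the library, log axis) of each enzyme transcript in every tumor, with 3 points and a line at the mean for each of the 5 models. The 3 Pan02 tumors lay above all other tumors for Lox, Loxl1 and Loxl2, and the 3 B16 tumors lay below all others for Loxl1, Loxl4 and Plod3.

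Lox (chromosome 18, 52516060 to 52529823, minus strand, mm10), the founding lysyl oxidase, was at 463, 424 and 560 CPM in Pan02 tumors, at 141, 21.6 and 138 in MC38, at 80.8, 95.8 and 43.6 in LL2, at 60.2, 63.0 and 94.6 in EO771, and at 2.16, 17.0 and 24.7 in B16. No Pan02 tumor overlapped any other. B16 overlapped the others only through MC38 tumor 2. Lox was higher in Pan02 by 3.18 on the log2 scale (SE 0.44, adjusted p = 3.7e-05) and lower in B16 (log2 fold change -3.08, SE 0.65, adjusted p = 0.00098). MC38, LL2 and EO771 were neighbours that did not pass the test against each other (adjusted p = 0.61 and 0.99). Loxl1 (chromosome 9, 58287723 to 58313212, minus strand), which acts on elastin, followed Lox closely, with 724, 631 and 444 CPM in Pan02 and 5.11, 16.5 and 27.4 in B16, while the other 9 tumors ranged from 44.7 to 170. Pan02 was above and B16 below every other tumor. Its log2 fold change was 3.18 in Pan02 (SE 0.34, adjusted p = 3.3e-06) and -3.28 in B16 (SE 0.50, adjusted p = 6.9e-05). Over the 15 tumors, Lox and Loxl1 had a Pearson r of 0.97 on log2(CPM + 1), the highest between any 2 of the 10 genes, and the points share the separation of the models.

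Loxl2 (chromosome 14, 69609476 to 69695834, plus strand), a lysyl oxidase with scavenger receptor domains, was at 291, 203 and 187 CPM in Pan02 tumors and nowhere above 72.0 CPM elsewhere. B16 tumors, low for Lox and Loxl1, were not low for Loxl2, at 66.8, 69.0 and 65.5 CPM. Loxl2 was higher in Pan02 by 2.23 (log2, SE 0.30, adjusted p = 2.5e-05) and lower in LL2 (log2 fold change -1.09, SE 0.37, adjusted p = 0.029). Leaving out the third or the first LL2 tumor ended the LL2 call (adjusted p = 0.14 and 0.059). B16, EO771, MC38 and LL2 did not differ between neighbours in the order. Of the Loxl2 exon bases, 10.1% are shared with other genes, namely Gm27177 on the opposite strand and Mir6950.

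Loxl3 (chromosome 6, 83034224 to 83052564, plus strand) had a different order. It was at 219, 217 and 246 CPM in LL2 tumors and at 198, 169 and 229 in Pan02, which did not differ from LL2 (adjusted p = 0.17). B16 and MC38 tumors lay together at 104 to 123 CPM, and EO771 was below all others at 69.5, 79.1 and 76.9. The log2 fold changes were 0.95 in LL2 (SE 0.08, adjusted p = 1.3e-06), 0.70 in Pan02 (SE 0.08, adjusted p = 9.9e-06) and -1.05 in EO771 (SE 0.10, adjusted p = 1.1e-06). B16 and MC38 were each lower by a smaller log2 change of -0.30 (adjusted p = 0.01 and 0.014), and the MC38 call was lost without MC38 tumor 1 (adjusted p = 0.094) and with total-count scaling (adjusted p = 0.17). Of the Loxl3 exon bases, 13.1% lie in exons of Htra2 on the opposite strand, and reads were counted without regard to strand.

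Loxl4 (chromosome 19, 42592279 to 42612806, minus strand) spanned the widest range of the 10 genes, with a 103-fold ratio of the highest to the lowest model mean. EO771 tumors held 99.6, 102 and 105 CPM, above all others, and B16 tumors held 0.687, 0.995 and 1.30 CPM, below all others. Pan02 tumors lay between at 58.4, 97.6 and 66.8, and LL2 and MC38 tumors at 27.9 to 38.1. Loxl4 was higher in EO771 by 2.61 (log2, SE 0.14, adjusted p = 8e-09) and in Pan02 by 2.03 (SE 0.14, adjusted p = 5.8e-08), and lower in B16 (log2 fold change -5.65, SE 0.24, adjusted p = 2.6e-10). LL2 and MC38 were called higher by 0.50 and 0.51 (adjusted p = 0.015 and 0.012) against a mean that includes B16, although every LL2 and MC38 tumor lay below every EO771 and Pan02 tumor. Those calls were lost without LL2 tumor 3 (adjusted p = 0.083) and without MC38 tumor 1 (adjusted p = 0.11).

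The lysyl hydroxylases had other orders. Plod1 (chromosome 4, 147909753 to 147936776, minus strand), which hydroxylates lysines of the helix, was highest in B16 tumors, at 444, 475 and 444 CPM, above all other tumors, which spanned 197 to 351. MC38 tumors were the lowest at 197, 231 and 216. The log2 fold change was 0.78 in B16 (SE 0.08, adjusted p = 2.3e-06), -0.57 in MC38 (SE 0.09, adjusted p = 0.00016) and -0.29 in Pan02 (SE 0.09, adjusted p = 0.012), and the Pan02 call was lost without Pan02 tumor 2 (adjusted p = 0.055). LL2, EO771, Pan02 and MC38 followed in that order with no called step between neighbours.

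Plod2 (chromosome 9, 92542223 to 92608427, plus strand), the telopeptide lysyl hydroxylase, was highest in LL2 tumors, at 402, 215 and 266 CPM, and each exceeded all other tumors. B16 tumors came next at 203, 181 and 175, and EO771 and Pan02 tumors were the lowest at 76.9 to 96.2, with no difference detected between them (adjusted p = 0.51). The LL2 log2 fold change was 1.36 (SE 0.13, adjusted p = 3.4e-06), and B16 was higher by 0.54 (SE 0.14, adjusted p = 0.0041). EO771 and Pan02 were lower, with log2 fold changes of -0.99 (SE 0.16, adjusted p = 0.00014) and -0.81 (SE 0.15, adjusted p = 0.0005). Of the Plod2 exon bases, 8.33% lie in exons of Gm38391 on the opposite strand.

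Plod3 (chromosome 5, 136987019 to 136996646, plus strand), which also glycosylates hydroxylysine, was at 402, 503 and 438 CPM in MC38 tumors, above every other tumor, and at 147, 190 and 178 in B16, below every other tumor. EO771, LL2 and Pan02 tumors shared the range of 215 to 309. MC38 was higher by 0.92 (log2, SE 0.10, adjusted p = 5.2e-06) and B16 lower (log2 fold change -0.81, SE 0.11, adjusted p = 2.4e-05). Of the Plod3 exon bases, 16.4% are shared with other genes, chiefly Znhit1 on the opposite strand, so some of its reads cannot be assigned. Over the 15 tumors Plod1 and Plod3 ran opposite, with a Pearson r of -0.84 given as a description.

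P4ha1 (chromosome 10, 59323296 to 59373304, plus strand) was lowest in EO771 tumors, at 99.1, 93.2 and 101 CPM, below every other tumor. B16 tumors held 186, 182 and 141, while MC38, Pan02 and LL2 tumors shared the range of 231 to 281, with no called step among those 3 models. The log2 fold change was -1.25 in EO771 (SE 0.09, adjusted p = 1.9e-07), 0.61 in LL2, 0.52 in Pan02 and 0.38 in MC38 (adjusted p from 6.4e-05 to 0.002). B16 was lower by a small log2 change of -0.26 (adjusted p = 0.021), a call lost without B16 tumor 3 (adjusted p = 0.19), LL2 tumor 1 (0.058) or MC38 tumor 3 (0.052).

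P4ha2 (chromosome 11, 54100924 to 54131667, plus strand) divided the models otherwise. Pan02 tumors held 238, 173 and 146 CPM and MC38 tumors 151, 151 and 153, with no difference detected between them (adjusted p = 0.23). EO771 tumors held 88.1 to 92.8, LL2 tumors 68.3, 79.6 and 41.4, and B16 tumors 51.6, 64.8 and 52.4. P4ha2 was higher in Pan02 by 1.15 (log2, SE 0.15, adjusted p = 2.4e-05) and in MC38 by 0.78 (SE 0.16, adjusted p = 0.00096), and lower in B16 (log2 fold change -1.003, SE 0.18, adjusted p = 0.00025) and LL2 (-0.80, SE 0.17, adjusted p = 0.0025).

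In CAFs the order of the model means was another. EO771 CAFs, not Pan02 CAFs, had the highest mean Lox, Loxl1 and Loxl2, and LL2 CAFs had the highest mean Plod1, Plod2 and P4ha1. EO771 CAFs were also the libraries with the highest fibroblast and leukocyte marker sums, whose part in these values was not tested. Of the 10 genes, 8 differed among the 4 models (limma-trend on log2(RPKM + 1), adjusted p from 0.00016 to 0.035), where 80.4% of 13598 genes did. Loxl1 (adjusted p = 0.18) and Loxl3 (adjusted p = 0.10) did not pass. EO771 CAFs were higher for 3 genes (background 24.5%) and lower for 2 (27.9%), LL2 CAFs were higher for 3 (14.7%) and lower for 0 (18.3%), and MC38 CAFs were higher for 2 (28.6%) and lower for 1 (31.3%). Pan02 CAFs were higher for 1, Loxl4 (27.1%), and lower for 6 (26.5%), namely Loxl2, Loxl3, Plod1, Plod2, Plod3 and P4ha2. The 10 genes had a median log2 fold change of -0.72 in Pan02 CAFs, beside 0.00 over all genes, and of 0.52 in EO771 CAFs, beside -0.02. For pairs, 7 genes were called for EO771 against Pan02 (53.2%), 6 for LL2 against MC38 (48.7%), and 5 each for EO771 against MC38 (56.3%), LL2 against Pan02 (35.5%) and MC38 against Pan02 (58.7%). EO771 against LL2 gave 3 (36.2%).

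**Figure D2:**
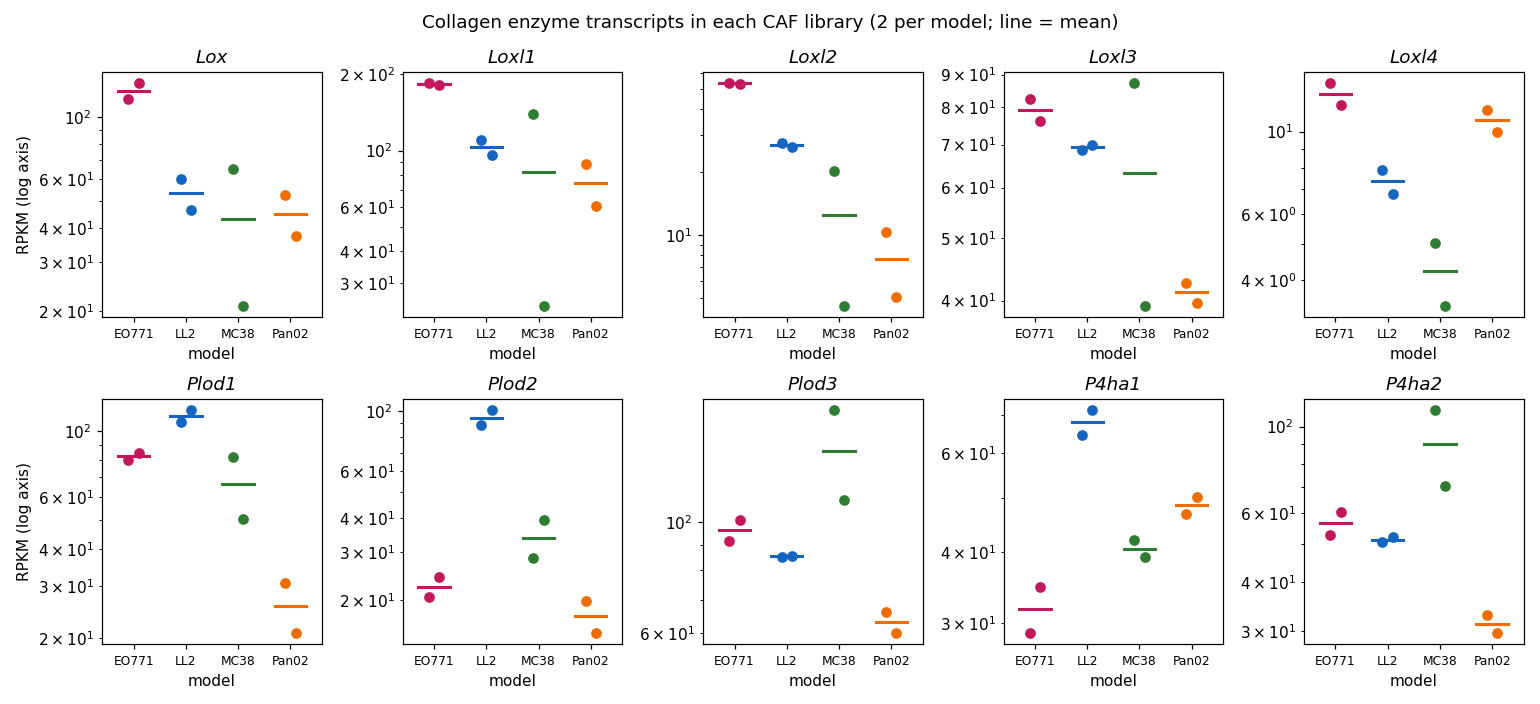
RPKM (log axis) of each enzyme transcript in every CAF library, with 2 points and a line at the mean for each of the 4 models. The EO771 points lay above all others for Lox, Loxl1, Loxl2 and Loxl4, and the MC38 libraries were far apart for the lysyl oxidases.

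Lox was at 117 and 133 RPKM in EO771 CAFs, above all other libraries, which spanned 20.9 to 65.4. EO771 was higher by 1.47 on the log2(RPKM + 1) scale (SE 0.38, adjusted p = 0.014), and the call was lost without EO771 CAF library 1 (adjusted p = 0.072) or 2 (adjusted p = 0.1). LL2 CAFs held 60.1 and 46.3, Pan02 CAFs 52.6 and 37.3, and MC38 CAFs 65.4 and 20.9, with no called step between neighbours. Loxl1 was at 185 and 182 RPKM in EO771 CAFs, 110 and 95.7 in LL2, 88.7 and 60.5 in Pan02, and 140 and 24.4 in MC38. The MC38 libraries lay above and below all LL2 and Pan02 libraries. Without the second MC38 library, EO771 CAFs had 8 of the 10 genes called in either direction rather than 5, while the share of all genes called went from 52.5% to 60%, and Pan02 CAFs had 9 rather than 7 (53.6% to 63.7%). Without the first, EO771 CAFs had 8 (63.8%), LL2 CAFs 6 rather than 3 (33% to 43.7%) and MC38 CAFs 7 rather than 3 (59.9% to 59.8%).

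Loxl2 had no called step between neighbours in the order, with 53.5 and 53.1 RPKM in EO771 CAFs, 27.5 and 26.4 in LL2, 20.3 and 4.58 in MC38, and 10.4 and 5.05 in Pan02. The MC38 libraries lay above and below both Pan02 libraries. Against the mean of the other models, EO771 was higher by 2.00 (log2, SE 0.46, adjusted p = 0.0093) and Pan02 lower (log2 fold change -1.62, SE 0.46, adjusted p = 0.02). The EO771 call was lost without either EO771 library (adjusted p = 0.066 in both cases), and the Pan02 call without Pan02 library 2 (adjusted p = 0.17). Loxl3 was at 42.6 and 39.7 RPKM in Pan02 CAFs, 82.5 and 76.2 in EO771, 68.7 and 69.97 in LL2, and 87.3 and 39.2 in MC38, so that the MC38 libraries were both the highest and the lowest. Its Pan02 call (log2 fold change -0.72, SE 0.26, adjusted p = 0.047) was lost without any 1 of the EO771, LL2 or Pan02 libraries (adjusted p from 0.079 to 0.19). Loxl4, at 13.5 and 11.8 RPKM in EO771 CAFs, 11.4 and 9.98 in Pan02, 7.92 and 6.82 in LL2, and 5.04 and 3.42 in MC38, was higher in EO771 (0.77, SE 0.15, adjusted p = 0.0044) and Pan02 (0.48, SE 0.15, adjusted p = 0.029) and lower in MC38 (log2 fold change -1.09, SE 0.15, adjusted p = 0.00066). The Pan02 call was lost without EO771 library 2, LL2 library 2 or either Pan02 library (adjusted p from 0.067 to 0.17), and the EO771 call without EO771 library 1 (adjusted p = 0.061).

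Plod1 was lowest in Pan02 CAFs, at 30.6 and 20.8 RPKM, below all other libraries, and highest in LL2 CAFs, at 107 and 118. Pan02 was lower (log2 fold change -1.70, SE 0.21, adjusted p = 0.00048) and LL2 higher by 1.12 (SE 0.21, adjusted p = 0.0064), the latter lost without LL2 library 1 (adjusted p = 0.055) or 2 (adjusted p = 0.077). Plod2 separated LL2 CAFs from all others, at 88.4 and 101 RPKM against 15.03 to 39.3, with a log2 fold change of 1.96 (SE 0.16, adjusted p = 0.00021). Plod2 was lower in Pan02 CAFs (log2 fold change -1.22, SE 0.16, adjusted p = 0.00077) and in EO771 CAFs (-0.75, SE 0.16, adjusted p = 0.0075), the EO771 call being lost without EO771 library 1 (adjusted p = 0.091). Plod3 was at 167 and 110 RPKM in MC38 CAFs, above all others, and at 66.2 and 60.0 in Pan02 CAFs, below all others. Its log2 fold changes were 0.75 (SE 0.16, adjusted p = 0.0054) and -0.71 (SE 0.16, adjusted p = 0.0083), the latter lost without Pan02 library 2 (adjusted p = 0.069).

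P4ha1 was at 64.5 and 71.5 RPKM in LL2 CAFs, above all others, and at 28.8 and 34.7 in EO771 CAFs, below all others, with log2 fold changes of 0.76 (SE 0.11, adjusted p = 0.0023) and -0.68 (SE 0.11, adjusted p = 0.0022). P4ha2 was at 110 and 70.3 RPKM in MC38 CAFs, above all others, and at 33.0 and 29.7 in Pan02 CAFs, below all others, with log2 fold changes of 0.95 (SE 0.17, adjusted p = 0.0023) and -0.998 (SE 0.17, adjusted p = 0.0023).

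**Figure D3:**
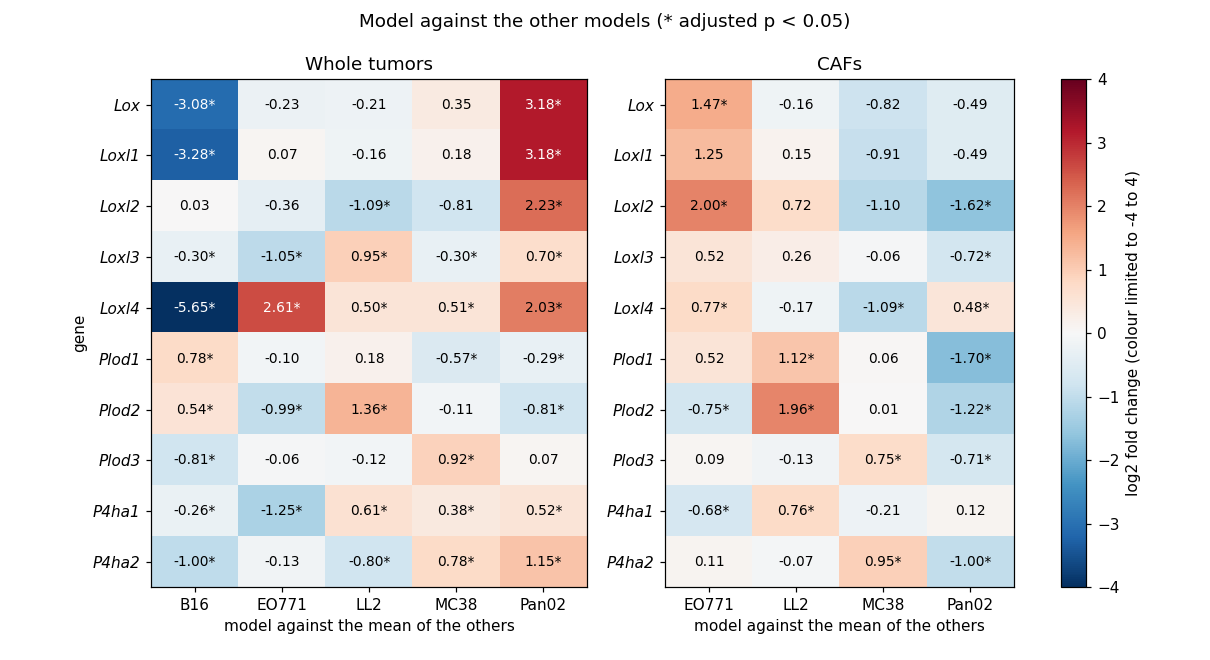
Log2 fold change of a model relative to the mean of all others, for tumors (left, 5 models) and CAFs (right, 4 models), with an asterisk at adjusted p below 0.05. In the Pan02 columns Loxl2 reads 2.23 in tumors and -1.62 in CAFs, and in the LL2 columns Plod2 reads 1.36 and 1.96.

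Some orders were shared by both kinds of sample and others were not. Plod2 was highest in LL2, Plod3 was highest in MC38 and P4ha1 was lowest in EO771 in tumors and also in CAFs. The lysyl oxidases were highest in Pan02 tumors for Lox, Loxl1 and Loxl2, but in EO771 CAFs among the CAF libraries. The 2 tables were normalized separately, so their levels are set side by side without a test, per length, as mean RPKM. Tumor RPKM were scaled here to totals over 1 transcript per gene, and the deposited CAF RPKM to the authors' own totals. Ratios between them may thus carry an unknown factor shared by all genes, and a ratio of 1 need not mean equal levels. In EO771, LL2 and MC38, Plod1, Plod2 and Plod3 were at 0.89 to 1.21 times their tumor level in CAFs. In the same models Lox was at 8.44, 3.56 and 1.94 times and Loxl1 at 5.71, 3.68 and 2.21 times its tumor level. Loxl2 was at 5.08, 3.88 and 1.40 times, Loxl3 at 4.27, 1.24 and 2.07 times, and Loxl4 at 0.67, 1.27 and 0.67 times. Col1a1, which encodes the main fibrillar collagen chain, was at 8.45, 6.24 and 2.01 times. The Lox transcript kept was not the same, with 4888 bases in tumors and 4467 in CAFs. In Pan02 the ratio of CAF to tumor RPKM was below 1 for all 10 enzymes, from 0.19 for Loxl2 to 0.89 for Loxl3. It was 0.30 for Col1a1. Pan02 is also the model whose fibroblast marker sum was lower in CAFs than in tumors.

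**Figure D4:**
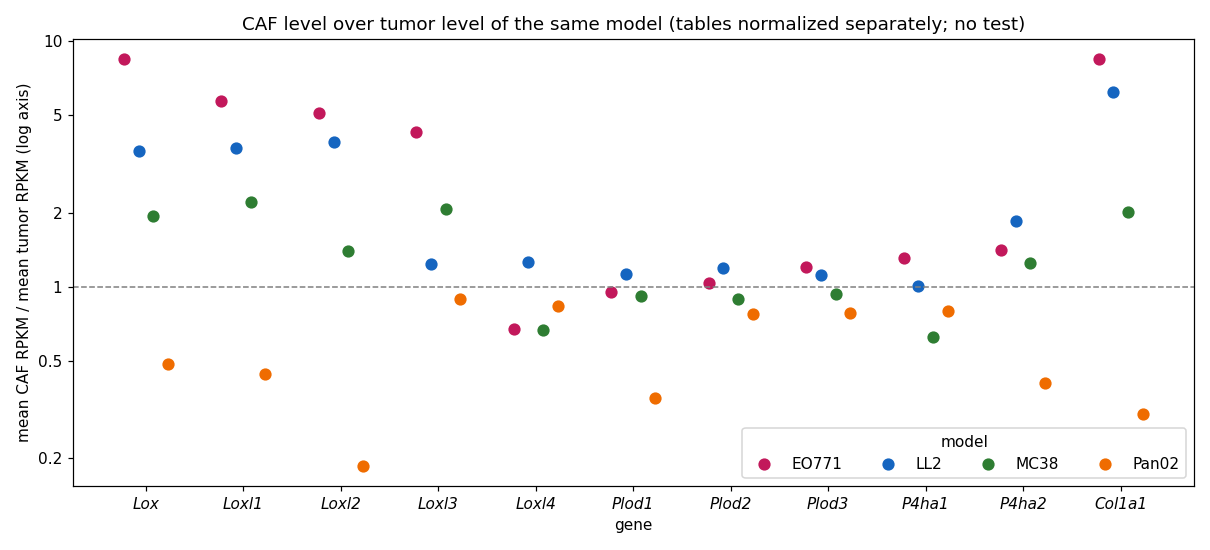
Ratio of the mean CAF RPKM to the mean tumor RPKM (log axis) for each enzyme and Col1a1 in the 4 models with both kinds of sample; the dashed line marks equal levels and no test was made. The points of the lysyl hydroxylases lie near 1 outside Pan02, while Lox in EO771 reaches 8.44.

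The make-up of each family was taken as a share of its summed RPKM. Loxl3 made up 57.8% ± 6.43 (SD, n = 3) of lysyl oxidase transcripts in B16 tumors and 50.5% ± 6.87 in LL2 tumors, but 12.9% ± 2.74 in Pan02 tumors, where Loxl1 made up 46.3% ± 7.42. Loxl4 held 20.2% ± 3.10 of the family in EO771 tumors and under 7% as a mean in every other model. In CAFs Loxl1 was the largest share in EO771, LL2 and Pan02, at means of 39.6% to 41.4%. In MC38 CAFs Loxl1 (35.2% ± 12.4) and Loxl3 (34.9% ± 10.5) had like means, Loxl1 being the larger in the first library and Loxl3 in the second. For the lysyl hydroxylases, Plod1 was the largest share in B16 tumors (57.6% ± 0.283) and Plod3 in MC38 tumors (57.4% ± 2.35), and Plod2 reached 30.5% ± 5.47 in LL2 tumors against 11.5% ± 0.322 in EO771 tumors. LL2 CAFs held 32.3% ± 1.19 (n = 2) Plod2 and EO771 CAFs 11.1% ± 0.683. P4ha1 was 71.4% ± 6.002 of P4ha1 plus P4ha2 in LL2 tumors and 37.5% ± 0.317 in EO771 tumors.

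**Figure D5:**
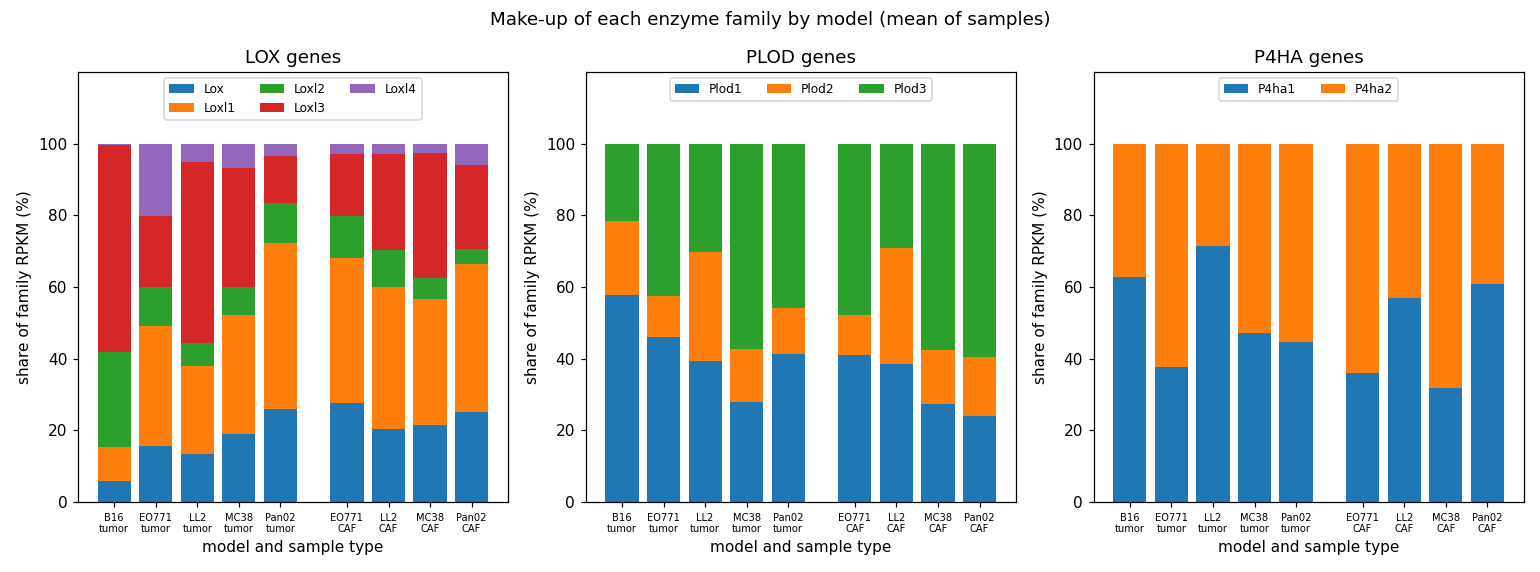
Mean share (%) of the summed RPKM of each enzyme family taken by each gene, in tumors (5 bars) and CAFs (4 bars). Loxl3 fills 57.8% of the B16 tumor bar and 12.9% of the Pan02 tumor bar, and Plod2 about as much of the LL2 CAF bar (32.3%) as of the LL2 tumor bar (30.5%).

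Read against Col1a1 in the same sample, Pan02 tumors, which held the most Lox, Loxl1 and Loxl2, had the lowest mean ratio for all 3 genes. The log2 ratio of Lox to Col1a1 CPM was -5.64 ± 0.40 in Pan02 tumors, the lowest mean, and -4.58 ± 0.66 in LL2 tumors, the highest, with overlapping values between most models. For Plod1 the ratio fell from 0.13 ± 1.06 in B16 tumors to -6.58 ± 0.35 in Pan02 tumors, and Plod2, Plod3, P4ha1 and P4ha2 were also lowest in Pan02. Col1a1 itself was at 20314 to 26479 CPM in Pan02 tumors against 178 to 732 in B16 tumors. In CAFs the mean log2 ratio of Loxl1 to Col1a1 stayed between -4.28 and -3.92 in all 4 models, even though the MC38 libraries differed in both genes.

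Of 24 other collagen-processing genes, 22 differed among tumor models, where 91.1% of all genes did, and, in CAFs, 16 of 21 tested did, where 80.4% did, so neither count stood above the background by more than 1 gene. In Pan02 tumors 14 were higher (background 32.5%) and 2 lower (28.1%) (median log2 fold change 0.50), including Adamts2, a procollagen N-propeptidase (2.74, SE 0.29, adjusted p = 3.3e-06), and P4ha3, the third alpha subunit (2.42, SE 0.28, adjusted p = 6e-06). In Pan02 CAFs 12 were lower (background 26.5%) and 3 higher (27.1%) (median -0.70), with P3h3 lower (log2 fold change -2.45, SE 0.28, adjusted p = 0.00035) and the crosslinking transglutaminase Tgm2 higher by 2.45 (SE 0.16, adjusted p = 2.5e-05). B16 tumors had 14 lower (background 31.6%) and 4 higher (31.9%), with P3h4 lower (log2 fold change -5.14, SE 0.26, adjusted p = 1.3e-09) and Fbln5, an elastic fibre protein, higher by 5.47 (SE 0.23, adjusted p = 2.3e-10). EO771 tumors had 10 higher and 6 lower (background 27.2% and 27.0%), LL2 tumors 9 and 3 (23.3% and 18.9%), and MC38 tumors 10 and 2 (27.0% and 24.4%). In the CAFs of EO771, 8 were higher and 1 lower (24.5% and 27.9%), of LL2 4 and 1 (14.7% and 18.3%), and of MC38 3 and 4 (28.6% and 31.3%). Of 8 collagen and elastin substrates, all 8 were lower in B16 tumors (background 31.6%, median -3.29) and 6 were higher in Pan02 tumors (background 32.5%, median 2.93), with Col1a1 higher by 3.77 (SE 0.40, adjusted p = 3.5e-06) there. In CAFs 2 of the 8 differed among models, where 80.4% of all genes did.

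The 10 hypoxia-responsive genes listed, among them Car9 and Egln3, all differed among the tumor models (background 91.1%) and among the CAF models (80.4%). In LL2 tumors 4 were higher (background 23.3%) and 0 lower (18.9%), with Adm higher by 2.59 (SE 0.30, adjusted p = 1.6e-05). In MC38 tumors 1 was higher (27.0%) and 2 were lower (24.4%), with Adm lower (log2 fold change -2.68, SE 0.43, adjusted p = 0.00016). B16 tumors had 4 higher and 4 lower (31.9% and 31.6%), and 4 were higher and 3 lower in EO771 tumors (27.2% and 27.0%) as in Pan02 tumors (32.5% and 28.1%). In CAFs 5 were higher and 3 lower in EO771 (24.5% and 27.9%), 3 and 1 in LL2 (14.7% and 18.3%), 3 and 4 in MC38 (28.6% and 31.3%), and 4 and 3 in Pan02 (27.1% and 26.5%). The part of low oxygen in the enzyme values was not tested.

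Among 10573 genes with a mean of at least 10 CPM, those whose log2(CPM + 1) followed each enzyme most closely over the 15 tumors were, for Lox, Loxl1 (Pearson r 0.97), Sulf1 (0.97) and Mfap2 (0.97), and, for Loxl1, Sulf1 (0.99), Slit3 (0.98) and Htra3 (0.98). Loxl2 was followed by Fam114a1 (0.94), Fam20c (0.92) and Notch3 (0.89), Loxl3 by Pear1 (0.95) and Plscr4 (0.94), and Loxl4 by Plcd3, Anxa3 and Tnfrsf23 (0.98 to 0.99). Plod1 was followed by Smad5, Stambp and Mvb12b (0.95 to 0.96), Plod2 by B430319G15Rik, Hspa13 and Hmgn3 (0.93 to 0.96) and Plod3 by Slc25a22, Rab35 and Ankrd13a (0.94 to 0.95). P4ha1 was followed by Kcnk5, Gabbr1 and Lmo7 (0.96 to 0.97) and P4ha2 by Kif26b, Cask and Gadd45b (0.94 to 0.95). The 15 points fall into 5 models of 3 tumors, so these values describe shared differences between models.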

How the data were processed

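RNA from fragments of 15 tumors and from 8 CAF libraries was sequenced after poly(A) selection, without strand information. The authors aligned reads with STAR 2.5.0c to mm10 and counted them with HOMER over RefSeq transcripts. The deposited tumor values are estimated counts in steps of 0.5, and the deposited CAF values are RPKM with 3 decimals. For each symbol the transcript with the largest mean was kept, and estimated counts were rounded to whole numbers. Tumors were tested with the quasi-likelihood test of edgeR 4.0.16 (TMM scaling, filterByExpr) and CAFs with limma 3.58.1 (trend) on log2(RPKM + 1) for genes at 1 RPKM or more in at least 2 libraries. Fold changes on this scale understate those of low genes. P-values were adjusted by Benjamini-Hochberg over all genes tested, with a threshold of 0.05, and the standard errors of edgeR were taken as the log2 fold change over the root of its F statistic. Both tests were tested on simulated data. Tumor CPM used TMM-scaled totals, and tumor RPKM used count, length and total count.

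The labels do not say that the samples of a model came from separate experiments beyond separate tumors or sorts, so p-values measure the spread between these samples. Both flanks of a mouse could carry tumors, and whether tumors of a model shared a mouse was not examined. Samples of a model differed beyond counting noise (chi-square per degree of freedom of at least 5.12 in tumors and 7.69 in CAFs). In CAFs, 99.7% to 100% of low values lay within 0.1 read of a step of 0.5 read, which gave the depths. 5 columns of another model had no sample and were not used. Rows naming no gene (2 transcripts, 2.08e-05% of counts) were left out. Exon overlaps came from GENCODE and promoters from RefSeq. All 10 genes were named, companion genes were the 2 largest called changes per list and comparison, of which some are printed, and the 3 most alike genes per enzyme, 1 of which is not reported here, had a mean of at least 10 CPM. The members and gene lists were chosen with earlier results of these data known. Alternatives were DESeq2 1.42.0, other size factors, other transcripts, no filter, doubled counts, a pseudocount of 0.1, no variance trend, a replicate block, leaving out each sample and, chosen after seeing the data, edgeR on the recovered CAF reads.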

Additional observations from a re-analysis of the deposited data

Results flagged for a closer look

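For 13 pairs of gene and model, every tumor of the model lay on one side of the mean of the other 3 models that also gave CAFs, and every CAF library of the model lay on the opposite side of its mean. A stricter criterion was tried first, that every sample of the model lie beyond every sample of the others in both tables, and it gave 0 pairs, so the criterion used here was chosen after seeing the data. The difference between CAFs and tumors was not tested in any of them, and the CAF and tumor tables were normalized separately. Values are the CAF difference minus the tumor difference, in log2(value + 1) against the other models that also gave CAFs. The tumor calls quoted beside them are those against the mean of all other tumor models, B16 included. With B16 included, Loxl1 in EO771 tumors had a log2 fold change of 0.07 (not called), whereas without B16 its tumor difference was -0.74. In Pan02, with tumors above and CAFs below those means, the value was -4.07 for Loxl2, -3.21 for Lox, -3.06 for Loxl1, -1.94 for P4ha2 and -1.38 for Loxl3. Both comparisons of Loxl2, Loxl3 and P4ha2 in Pan02 were called, in opposite directions, while Lox and Loxl1 were called in Pan02 tumors only. In EO771, with tumors below and CAFs above, it was 2.40 for Lox, 1.99 for Loxl1, 1.70 for Loxl3, 0.49 for P4ha2 and 0.36 for Plod3. None of these EO771 pairs was called against the other models in both tables, Lox being called in CAFs only, Loxl3 in tumors only, and Loxl1, P4ha2 and Plod3 in neither. In LL2, with the same sides, it was 1.84 for Loxl2, called in tumors only, and 1.14 for Loxl1, called in neither. In MC38 it was -0.54 for P4ha1, above the mean in tumors, where it was called, and below it in CAFs, where it was not. The fibroblast marker sum was 8312 to 9025 RPKM in Pan02 tumors against 2485 to 4085 in Pan02 CAFs, and 802 to 1795 in EO771 tumors against 9632 to 10534 in EO771 CAFs, and its part in these values was not tested.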

How the results depend on the processing

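Of 34 called tumor fold changes between a model and the others, 1 lost its call under a setting other than leaving out a sample, namely Loxl3 in MC38 with total-count scaling, and 6 lost it when 1 tumor was left out. Of 18 CAF fold changes, 3 lost it without the filter on low values (Loxl2, Loxl3 and Loxl4 in Pan02) and 9 when 1 library was left out. None changed direction. TMM against total-count scaling shifted all genes by -0.14 in MC38 and 0.11 in Pan02 on the log2 scale. The number of the 10 genes called in CAFs without the filter on low values was 4 for Pan02 against the others, 3 for EO771 against MC38, 4 for EO771 against Pan02 and 3 for LL2 against Pan02. The cause was not tested, but this setting tests more genes. With 1 library left out, the lone library of its model being assumed to vary like the others, the number called ranged from 1 to 8 for EO771 against the others, 2 to 6 for LL2, 3 to 7 for MC38 and 3 to 9 for Pan02. The share of all genes called in the same refits ranged from 24.4% to 63.8% for EO771, 11.1% to 44.5% for LL2, 51.1% to 59.8% for MC38 and 36.5% to 63.7% for Pan02. For pairs it ranged from 2 to 6 (EO771 and LL2), 2 to 7 (EO771 and MC38), 3 to 8 (EO771 and Pan02), 2 to 9 (LL2 and MC38), 2 to 8 (LL2 and Pan02) and 5 to 8 (MC38 and Pan02). Deviations of tumors with the same replicate number correlated from -0.17 to 0.26, within the range for different numbers (-0.32 to 0.34). In CAFs the range was -0.14 to 0.28 for the same number and -0.28 to 0.14 for different numbers. The 2 CAF libraries of a model deviate by equal and opposite amounts, so those ranges mirror each other. Pairing by number was therefore not excluded. With a replicate block 10 genes were called among tumor models and 8 among CAF models, as without it. With edgeR on recovered CAF reads, 8 genes were called among models.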
